A study of Mus musculus with 12 samples.

Results

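Krueppel-like factors are transcription factors whose zinc fingers bind GC-rich and CACCC-like DNA, and the family holds both activators and repressors. Some members, Klf4 and Klf6 among them, are known to switch on soon after a stimulus. Others follow hormones: Klf9 and Klf15 respond to glucocorticoids, and Klf15 is known in skeletal muscle for its part in amino acid and lipid use. Klf2 and Klf4 are best known from the vessel lining, which whole muscle contains. The 9 members described here (Klf2, Klf3, Klf4, Klf5, Klf6, Klf9, Klf10, Klf13 and Klf15) were a given list, matched by symbol. All 9 were found among the 47643 gene identifiers of the table, which holds 17 Klf genes in all, 15 of them with at least 1 read.

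Transcripts of the gastrocnemius, the large muscle of the calf, were counted by tags at their 3′ ends in 6 female C57BL/6J mice at postnatal week 11. The 3 control and 3 Myc animals (genotype c-myc over-expression) each gave a left leg that was not contracted and a right leg that was contracted acutely. The 12 libraries formed 4 groups of 3, here called uncontracted control, contracted control, uncontracted Myc and contracted Myc. Body side and contraction cannot be told apart, and the labels give neither how c-myc was over-expressed nor when the muscle was taken after contraction. Libraries held 1371732 to 1643216 reads, and levels are given as CPM, read counts scaled to a common, TMM-adjusted library total, with 1 read worth 0.601 to 0.774 CPM. In whole muscle, fewer cells of a type and less RNA per cell cannot be told apart.

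The Myc reads check the labels. Uncontracted control legs held 0, 1 and 0 Myc reads in libraries 1, 2 and 3, and uncontracted Myc legs held 11, 9 and 9. The contracted libraries labelled control held 1, 10 and 59, and those labelled Myc held 32, 0 and 2. In contracted legs, libraries 2 and 3 of either genotype therefore went against what their labels would give if contraction left Myc reads unchanged. Whether contraction changes them was not examined beyond these reads. Which contracted leg belongs with which uncontracted leg rests on the same labels, so in the 4 animals numbered 2 and 3 the pairing of legs, and each ratio or count per animal below, holds only as labelled. For this reason contraction was read first as an average over both genotypes, which sets all contracted against all uncontracted legs. The averaged change of each member tested, and most list results, are also given without those 4 libraries. That fit keeps 1 contracted leg a genotype, so its p-values and calls hold no spread between contracted legs. The tissue label was checked by fibre genes: the 8 of them, Acta1 and Ckm among them, summed to 117500 to 143061 CPM in uncontracted and 103864 to 135245 CPM in contracted legs, and none of the 8 passed the test of contraction.

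RefSeq's table of mouse promoters (GRCm38.p6) held 7 of the 9 members, and Klf5 and Klf10 had no entry. Searched on both strands in the 250 bases before each start, the E-box CACGTG, the sequence known to be bound by Myc with its partner Max, was found in Klf4, Klf6 and Klf15. It is in 6.02% of all 32851 promoters of that length. The core TGACG of the cyclic AMP response element was found in Klf2, Klf4, Klf9, Klf13 and Klf15 and is in 17.8% of promoters, and the full element TGACGTCA, held by 1.55%, was in none of the 7. The CArG box of serum response factor (1.47% of promoters) was found in none, and the MEF2 site (0.508%) in Klf2 alone. The GC box GGGCGG was in 6 of the 7 (32.7% of promoters), the CACCC box in 5 (52.0%) and AGAACA, the core of the glucocorticoid receptor's site, in none (16.1%). Such matches describe the letters of the window and do not show binding. The bases upstream of 4 members are printed because the study concerns Myc (the 3 with an E-box) and because Klf2 holds the only MEF2 match. They lie at chr13:5861239-5861481 on the plus strand for Klf6, chr4:55532476-55532725 on the minus strand for Klf4, chr6:90462326-90462575 on the plus strand for Klf15 and chr8:72318812-72319032 on the plus strand for Klf2. Capitals mark E-boxes, TGACG or its complement, and the MEF2 site.
Klf6: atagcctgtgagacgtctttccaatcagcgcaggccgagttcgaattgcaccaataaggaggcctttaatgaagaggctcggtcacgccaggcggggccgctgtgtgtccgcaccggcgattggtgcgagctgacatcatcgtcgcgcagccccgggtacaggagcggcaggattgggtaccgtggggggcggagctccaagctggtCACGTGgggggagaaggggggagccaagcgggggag
Klf4: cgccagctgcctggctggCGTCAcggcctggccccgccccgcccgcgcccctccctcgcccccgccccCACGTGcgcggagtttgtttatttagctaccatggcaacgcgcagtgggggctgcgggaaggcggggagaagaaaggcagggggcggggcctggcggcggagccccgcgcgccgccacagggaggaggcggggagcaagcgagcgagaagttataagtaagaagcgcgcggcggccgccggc
Klf15: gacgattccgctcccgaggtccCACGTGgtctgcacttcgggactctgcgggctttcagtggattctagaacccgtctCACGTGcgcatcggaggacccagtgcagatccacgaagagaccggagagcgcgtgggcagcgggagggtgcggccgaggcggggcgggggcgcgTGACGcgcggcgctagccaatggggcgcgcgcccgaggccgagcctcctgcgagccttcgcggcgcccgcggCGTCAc
Klf2: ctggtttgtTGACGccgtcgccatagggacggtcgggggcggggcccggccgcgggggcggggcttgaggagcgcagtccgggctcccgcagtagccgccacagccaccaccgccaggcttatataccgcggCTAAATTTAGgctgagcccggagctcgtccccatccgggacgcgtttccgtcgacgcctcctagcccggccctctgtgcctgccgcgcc
The E-box of Klf6 begins 43 bases before the RefSeq start and that of Klf4 182 bases before it. Klf15 holds E-boxes that begin 228 and 172 bases before its start. The MEF2 site of Klf2 begins 118 bases before the RefSeq start. All these distances are counted from the RefSeq start. The printed bases end before the RefSeq or the GENCODE start, whichever lies further upstream. Those of Klf6 (243 bases) and Klf2 (221 bases) therefore stop short of the RefSeq start.

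In resting muscle the members differed in level. The tag method counts 1 end per transcript, so levels can be compared between genes without a length term. Over the 6 uncontracted legs Klf9 stood highest at 104 ± 40.6 CPM (mean ± SD, n = 6), followed by Klf13 (38.2 ± 12.6), Klf2 (19.2 ± 6.76), Klf5 (15.3 ± 3.59), Klf6 (7.45 ± 2.91), Klf4 (6.74 ± 4.82), Klf3 (6.67 ± 3.01), Klf15 (5.84 ± 2.90) and Klf10 (3.71 ± 2.39). The ranges of neighbours in this order were separate between Klf9 and Klf13 and between Klf5 and Klf6, and overlapped for the rest. In contracted legs the order changed: Klf9 (147 ± 53.0 CPM) was followed by Klf5 (87.9 ± 18.5) and Klf6 (64.0 ± 19.6), which now stood above Klf13 (41.8 ± 13.1) and Klf2 (21.4 ± 5.55). The ranges of all neighbours overlapped there. Klf4 (12.7 ± 5.73), Klf3 (7.53 ± 1.67), Klf10 (6.32 ± 1.82) and Klf15 (3.20 ± 1.32) stayed below.

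**Figure D1:**
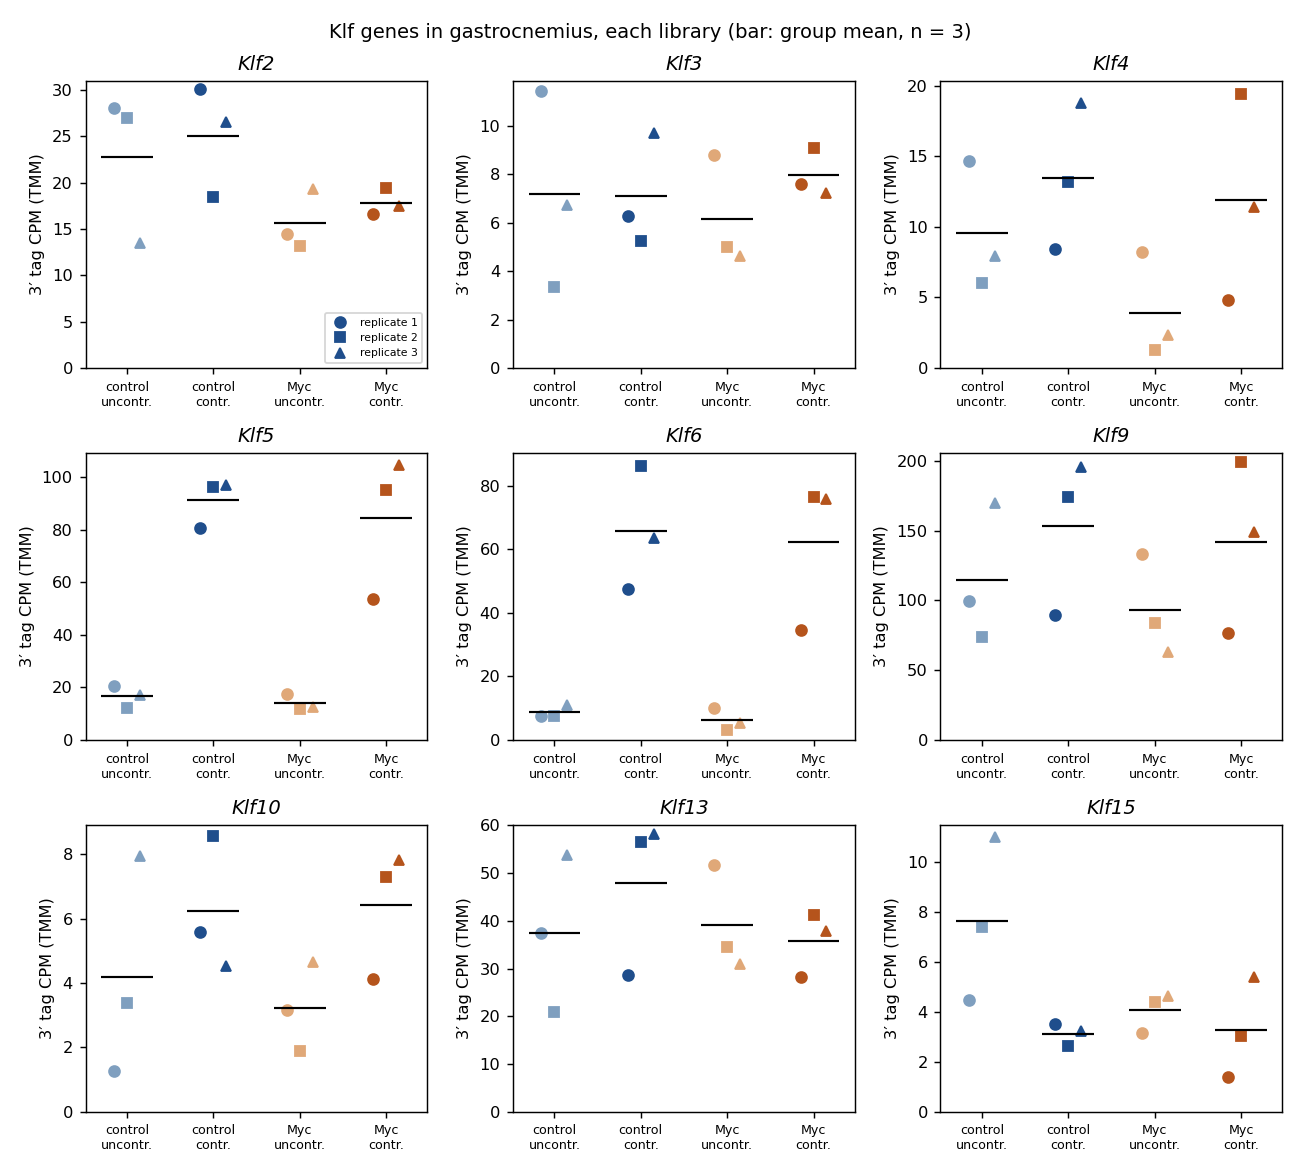
Level of each Klf gene in every library (CPM, linear axis from 0, scaled per gene), by group, with 1 point per library and a bar at the group mean. Klf5 and Klf6 separate contracted from uncontracted legs in both genotypes, while the points of Klf2, Klf3, Klf9 and Klf13 overlap between legs.

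Klf5 and Klf6 rose with contraction. Averaged over genotypes, 8 of the 9 members had enough reads for edgeR's test, and of these 2 were higher, 0 lower and 6 did not pass at an adjusted p under 0.05 over 6676 genes. Over all genes tested 5.71% passed as higher and 1.77% as lower, 7.47% together. The median change of the 8 members was 0.65 on the log2 scale. It leaves out Klf15, with 30 reads in contracted and 54 in uncontracted legs. The median of all genes tested was -0.0033, with 5% of genes below -0.47 and 5% above 0.80. In control and in Myc animals taken alone, as labelled, the same count passed, again Klf5 and Klf6, beside 2.38% of genes higher in control and 3.45% in Myc animals (2.8% and 3.89% in either direction).

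Klf5 (chr14:99298691-99315036, plus strand, GRCm38) encodes an activator of growth and differentiation genes, known in mouse muscle for a role in lipid oxidation. It held 20.4, 12.1 and 17.1 CPM in uncontracted control legs 1, 2 and 3, and 80.5, 96.1 and 97.2 in the contracted legs of the same animals. In Myc animals it held 17.6, 11.9 and 12.4 CPM in uncontracted and 53.8, 95.2 and 105 in contracted legs. The lowest contracted leg stood above the highest uncontracted leg, and contracted leg 1 was the lowest of its group in both genotypes. The group means were 16.5 ± 4.16 and 91.3 ± 9.34 CPM in control animals (SD, n = 3) and 14.0 ± 3.18 and 84.6 ± 27.0 in Myc animals. The averaged log2 change was 2.52 ± 0.17 (SE; edgeR adjusted p = 1.39e-09), a 5.74-fold rise, with the contracted leg higher in 6 of 6 animals as labelled. It was 2.45 ± 0.24 in control and 2.59 ± 0.25 in Myc animals (edgeR adjusted p = 9.83e-07 and 5.98e-07). Averaged without the 4 libraries it was 2.10.

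Klf6 (chr13:5861482-5870394, plus strand), an early-response activator whose promoter with its E-box is printed above, changed the most of the members. It held 7.64, 7.40 and 11.0 CPM in uncontracted control legs and 47.6, 86.2 and 63.5 in contracted ones. In Myc animals the levels were 10.1, 3.14 and 5.42 CPM in uncontracted and 34.5, 76.4 and 75.8 in contracted legs. Again the legs did not overlap, as in 3.82% of all genes tested, 2.95% with the contracted legs higher. The averaged log2 change was 3.11 ± 0.25 (edgeR adjusted p = 1.39e-08), a rise of 8.61-fold, with 2.90 ± 0.34 in control and 3.31 ± 0.37 in Myc animals (adjusted p = 1.09e-05 and 3.39e-06). Without the 4 libraries the averaged change was 2.45. By log2 change, Klf6 ranked 29 and Klf5 ranked 45 from the highest among the 6676 genes.

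The size of the rise spanned a wider range between animals for Klf6 than for Klf5. The contracted leg held 3.05 to 8.45 times the uncontracted Klf5 level (median 6.80) and 3.42 to 24.3 times the Klf6 level (median 8.94). For both genes the smallest ratio was that of Myc animal 1, and the largest Klf6 ratio, that of Myc animal 2, rests on 5 reads in the uncontracted leg. The genes most like Klf5 over the 12 libraries, by the root-mean-square difference of centred log2 CPM, were Hbegf (0.20), Klhl40 (0.23) and Mustn1 (0.32), against a spread of Klf5 itself of 1.31 (SD). Hbegf encodes a growth factor of the EGF family, Klhl40 a protein of the muscle sarcomere and Mustn1 a small muscle and skeletal protein. Nearest to Klf6 was Klf5 itself (0.38), then Klhl40 (0.42) and Hbegf (0.43).

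**Figure D2:**
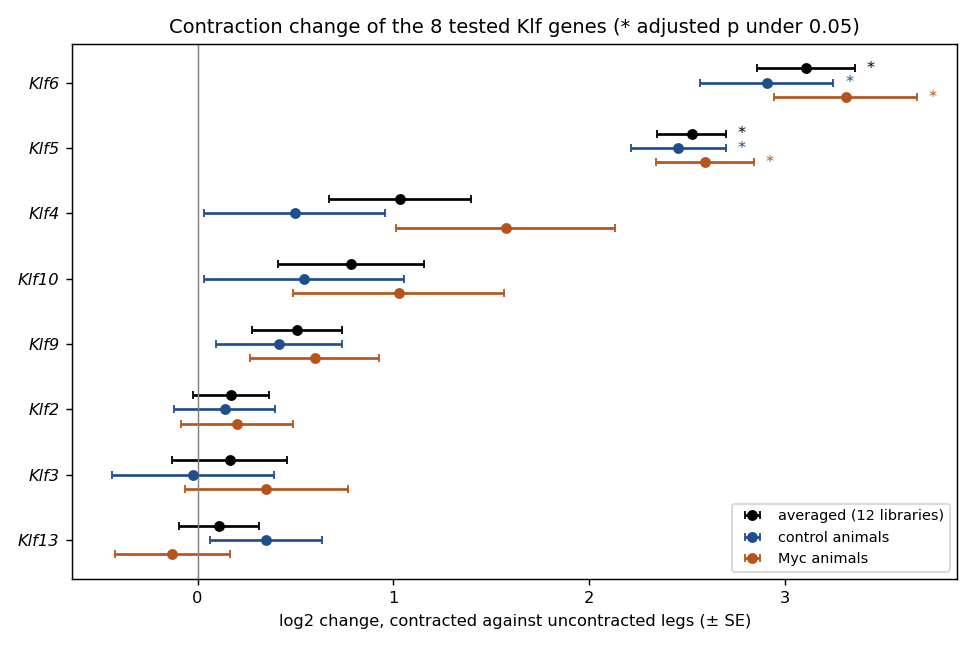
Log2 change with contraction of the 8 Klf genes tested (point, with its SE as a bar), averaged over genotypes and in control and Myc animals alone. Klf6 (3.11) and Klf5 (2.52) stand apart from the others, whose averaged changes lie between 0.11 and 1.03.

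Klf4 (chr4:55527143-55532466, minus strand), a factor of vessel lining, macrophages and stem cells, did not pass in the averaged comparison, at 1.03 ± 0.36 (edgeR adjusted p = 0.0931). Uncontracted control legs held 14.6, 6.06 and 7.96 CPM and contracted ones 8.40, 13.2 and 18.8. Uncontracted Myc legs held 8.19, 1.26 and 2.32 CPM and contracted ones 4.83, 19.4 and 11.4. In animal 1 of either genotype the contracted leg was the lower one, with ratios of 0.574 and 0.589, and in the other 4 animals it was the higher, at 2.17 to 15.5. The change was 0.50 ± 0.46 in control and 1.57 ± 0.56 in Myc animals, where uncontracted legs 2 and 3 held 2 and 3 reads. The call rests on single libraries: the adjusted p was 0.0438, 0.0170 and 0.0199 without contracted control 1, uncontracted Myc 1 and contracted Myc 1, and 0.998 at a change of 0.041 without the 4 libraries. With no low-count filter it was 0.00298.

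Klf9 (chr19:23141226-23168134, plus strand), which glucocorticoids and thyroid hormone are known to induce, was the member with the most reads, 2351 in all. Control legs held 99.3, 74.0 and 170 CPM uncontracted and 89.6, 174 and 196 contracted. Myc legs held 133, 84.1 and 62.7 CPM uncontracted and 76.6, 199 and 149 contracted. The legs overlapped, and the averaged change of 0.51 ± 0.23 did not pass (edgeR adjusted p = 0.219). As with Klf4, the contracted leg was lower in animal 1 of each genotype (ratios 0.902 and 0.576) and higher in the other 4 (1.15 to 2.38). Klf9 passed without contracted Myc 1 (adjusted p = 0.0429) and with no low-count filter (0.000510), and its change was -0.32 without the 4 libraries.

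Klf3, a repressor that recruits CtBP, and Klf13, which is known to work with the Sin3a corepressor, shared this split by animal in direction. Some of the differences lie within counting error. Klf3 held 5 reads in the uncontracted and 8 in the contracted leg of control animal 2, and Klf13 held 88 and 90 in control animal 3. Klf13 held 20.9 to 53.9 CPM in uncontracted and 28.3 to 58.3 in contracted legs, and its averaged change was 0.11 ± 0.20 (edgeR adjusted p = 0.824). Klf3 held 3.36 to 11.5 and 5.27 to 9.72 CPM, with a change of 0.16 ± 0.29 (adjusted p = 0.816). Klf3, Klf4, Klf9 and Klf13, 4 of the 8 members tested, were higher in the contracted leg of the 4 animals numbered 2 and 3 and lower in the 2 numbered 1, a pattern found in 260 of all genes tested (3.89%). Contracted leg 1 was the lowest of its group in both genotypes for Klf4, Klf5, Klf6, Klf9 and Klf13, as for 16.6% of all genes. No label says that the animal number marks a batch, and what sets these legs apart was not tested.

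**Figure D3:**
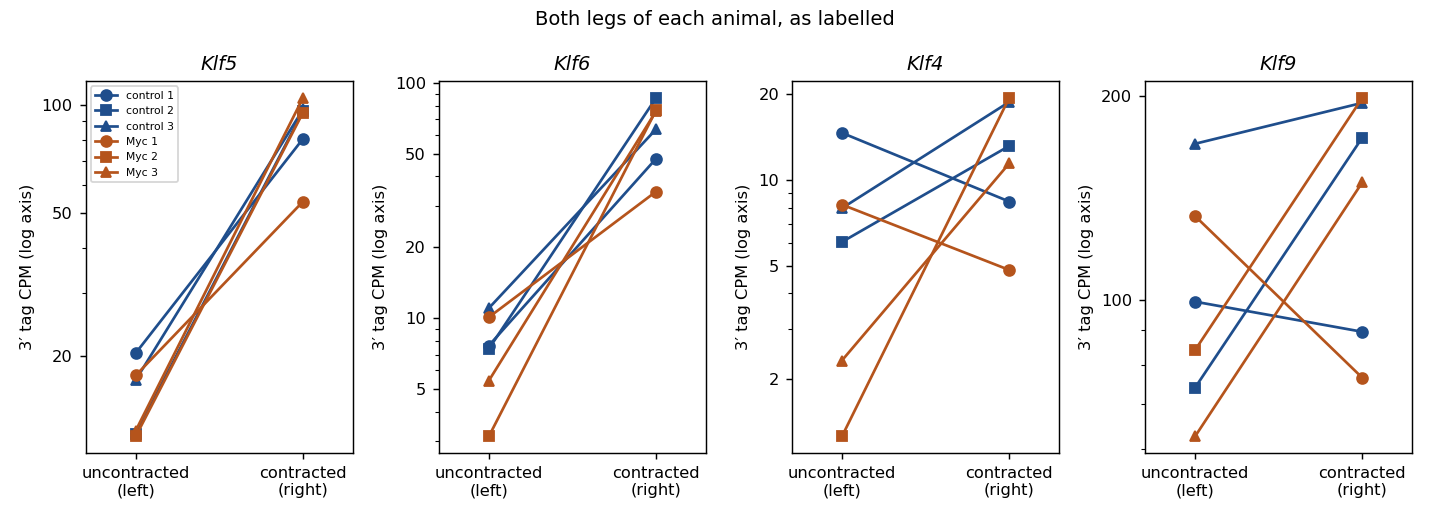
Level of Klf5, Klf6, Klf4 and Klf9 in the uncontracted and the contracted leg of each of the 6 animals (CPM, log axis), with a line joining the legs of 1 animal. Klf5 and Klf6 rise in all 6 animals, and for Klf4 and Klf9 the lines of both animals numbered 1 fall while the other 4 rise.

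Klf2 and Klf10 gave no call either. Klf2, a flow-responsive factor of the vessel lining, held 13.2 to 28.0 CPM in uncontracted and 16.6 to 30.1 in contracted legs, with a change of 0.17 ± 0.19 (edgeR adjusted p = 0.694) and the contracted leg higher in 4 of 6 animals. Klf10, first described as an early gene of TGF-beta signalling, held 1.27 to 7.96 and 4.14 to 8.56 CPM, on 93 reads in all. Its contracted leg was higher in 5 of 6 animals, with a change of 0.78 ± 0.37 that did not pass (adjusted p = 0.240). At an unadjusted p under 0.05, 5 of the 8 members would pass (Klf5, Klf6, Klf4, Klf9 and Klf10), beside 20.2% of all genes. Klf10 held 2, 5 and 13 reads in uncontracted control and 5, 3 and 6 in uncontracted Myc legs, too few there alone for the low-count filter. It was tested through its contracted legs, while Klf15, with fewer reads in contracted than in uncontracted legs, was not tested. The count of 5 of 8 therefore leans towards rises.

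**Figure D4:**
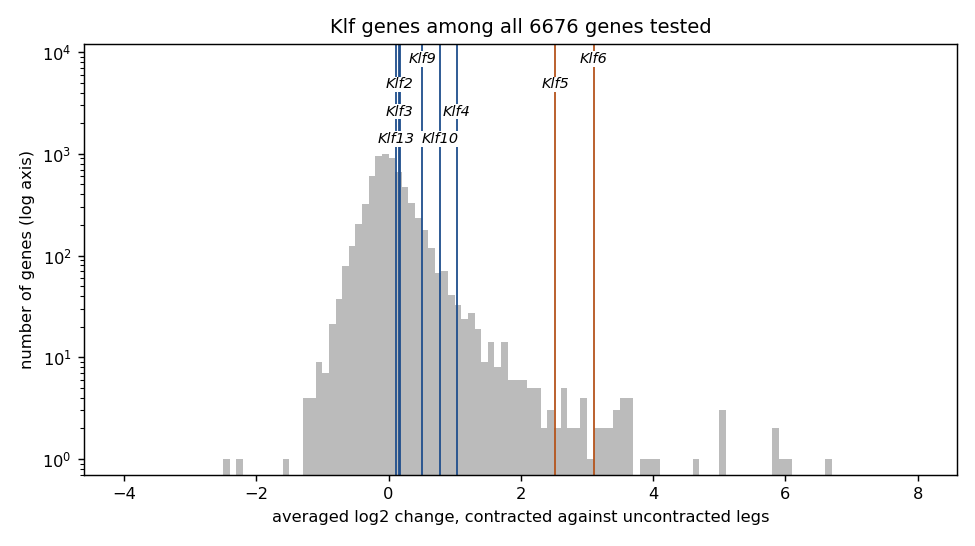
Averaged log2 change with contraction of all 6676 genes tested (histogram, log count axis), with the 8 Klf genes marked by lines. Klf5 and Klf6 lie far in the upper tail, and Klf2, Klf3, Klf9, Klf10 and Klf13 lie within the 5% to 95% range of -0.47 to 0.80.

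Klf15 (chr6:90462576-90475238, plus strand), the glucocorticoid-induced regulator of branched-chain amino acid use, had too few reads for the low-count filter and has no test. Control legs held 7, 11 and 18 reads uncontracted and 5, 4 and 5 contracted, and Myc legs 5, 7 and 6 uncontracted and 2, 5 and 9 contracted. In control animals the legs did not overlap (4.45 to 11.0 CPM against 2.63 to 3.50), as in 16.8% of the genes tested, 7.12% with contracted legs lower, and in Myc animals they did. Pooled, contracted legs held 30 and uncontracted legs 54 reads, a ratio of 0.550 (95% exact interval 0.340 to 0.875, counting error only) that was 0.678 (0.403 to 1.13) without uncontracted control 3 and 0.413 (0.158 to 0.910) without the 4 libraries. The ratio was 0.406 (0.202 to 0.772) in control animals, 0.529 (0.244 to 1.13) without that library, and 0.835 (0.398 to 1.73) in Myc animals, where it was 0.343 (0.0386 to 1.43) without the 4 libraries. With no low-count filter edgeR gave an averaged change of -0.77 ± 0.36 (adjusted p = 0.353 over 17871 genes).

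None of the 8 members passed a test of genotype. A p that misses the threshold does not show that the genotypes are alike. The contraction effect in Myc minus that in control animals was 0.13 ± 0.36 for Klf5, 0.40 ± 0.55 for Klf6 and 1.08 ± 0.73 for Klf4 (edgeR adjusted p = 0.988, 0.979 and 0.970). Without the 4 libraries, on 1 contracted leg a genotype, these were -0.32, 0.032 and 0.47. The Klf4 value ran from 0.54 (without contracted Myc 2) to 2.23 (without uncontracted Myc 1) with 1 library left out. No gene of the 6676 passed this interaction by edgeR or by DESeq2, and 331 (4.96%) had an unadjusted p under 0.05, none of them a member. For Myc against control in uncontracted legs, again 0 members and 0 genes passed by either tool (421 genes, 6.31%, at an unadjusted p under 0.05, of which 1 was a member, Klf4, at -1.24 ± 0.58, -2.41 without uncontracted Myc 1 and -0.79 without uncontracted Myc 2). Klf2 was at -0.55 ± 0.28 there. In contracted legs 0 members and 0 genes passed by either tool (205, or 3.07%, at an unadjusted p under 0.05, 0 of them members). That comparison holds the 4 libraries whose Myc reads go against their labels. Klf2 was at -0.48 ± 0.27 there. Without those libraries it was at -0.84, from 1 contracted Myc and 1 contracted control library, with 24 and 43 reads.

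Genes that work with the members were then counted in the averaged comparison. Over all genes tested 5.71% passed there as higher and 1.77% as lower, the shares to set beside each list. Among the immediate early companions 16 of 21 tested rose and 5 did not pass, with a median log2 change of 1.58: the zinc-finger factor gene Egr1 by 3.95 ± 0.30, the stress factor Atf3 by 5.07 ± 0.45, the nuclear receptor Nr4a3 by 3.50 ± 0.34 and the antiproliferative Btg2 by 2.67 ± 0.23. Without the 4 libraries 10 of them passed. Of 28 genes on this list 21 were tested. The list was drawn up with results of these data known, so its direction is no independent evidence. In each list here, a gene low in uncontracted legs could meet the low-count filter only through contracted legs. A fall of such a gene could hardly have been seen. Of the glucocorticoid-responsive genes 7 of 23 rose and 3 fell (median 0.20), among them the muscle ubiquitin ligase Trim63 (1.81 ± 0.20), the lipase inhibitor Angptl4 (2.04 ± 0.36), the EGF receptor inhibitor Errfi1 (1.33 ± 0.27) and the kinase Sgk1 (-0.76 ± 0.15), and without the 4 libraries 1 rose and 1 fell. By DESeq2 3 rose, and 3 rose without contracted Myc 2 and 4 without uncontracted control 2, contracted control 2 or uncontracted Myc 2 or 3. Of the branched-chain and lipid genes known as Klf15 targets 0 of 21 rose and 1 fell (median -0.08), the alanine transaminase Gpt2 at -0.45 ± 0.11, and 0 without the 4 libraries. Gpt2 also missed the threshold without any 1 of uncontracted or contracted Myc 2 and 3 (edgeR adjusted p = 0.0520 to 0.0541).

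Of the endothelial genes known as Klf2 or Klf4 targets 1 of 11 rose (median 0.15), beside 5.71% of all genes tested. This was thrombomodulin, Thbd, by 3.07 ± 0.22 (edgeR adjusted p = 1.96e-09), and by 2.69 without the 4 libraries. Of the TGF-beta genes 3 of 11 rose (median -0.08), among them the ligand Tgfb2 by 0.85 ± 0.18 and the muscle growth inhibitor Mstn by 1.07 ± 0.32, with 0 of them without the 4 libraries. Mstn (edgeR adjusted p = 0.0472) missed the threshold by DESeq2 (0.197), with the replicate block (0.0840), with library totals alone (0.0573) and in 9 of the 12 fits that leave out 1 library, the highest without contracted control 3 (0.204). Among 15 clock genes 1 rose and 5 fell (median -0.26), with Per3 at -1.18 ± 0.17, Dbp at -0.87 ± 0.15, Tef at -0.40 ± 0.10 and Bhlhe41 at 1.18 ± 0.17, and without the 4 libraries 0 rose and 1 fell. The number that fell was 3 by DESeq2, with the replicate block or with library totals alone, 2 without uncontracted Myc 3, and 3 without uncontracted control 1 or 3, contracted control 2 or 3, or contracted Myc 2 or 3. Of the regulators upstream of immediate early Klf genes 1 of 15 rose (median 0.24), Hif1a by 0.72 ± 0.18, which did not pass by DESeq2 (adjusted p = 0.161) or without the 4 libraries. None of 15 cofactors and degradation enzymes of the family passed (median 0.07), none of the 2 other family genes tested, Klf7 (-0.08 ± 0.18) and Sp1 (0.18 ± 0.28), and of 10 adipogenic and lipid genes around Klf5 and Klf3 1 rose, Lgals3 (0.997 ± 0.219), and 1 fell, the mitochondrial carrier Ucp3 (-0.87 ± 0.20). Without the 4 libraries Lgals3 was at 0.60 and did not pass (edgeR adjusted p = 0.701).

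Markers of other cell types moved with contraction in part. Of 9 endothelial markers tested none passed, and their sum was 199 to 245 CPM in uncontracted and 194 to 224 in contracted legs. Both neutrophil markers tested, S100a8 and S100a9, rose. They held 6 and 1 reads in uncontracted and 216 and 88 in contracted legs. Both thus met the low-count filter only through contracted legs, so a fall could not have been seen. Retnlg (2 and 13 reads) was not tested, nor were the receptor genes Csf3r and Cxcr2, at 0 reads in all 12 libraries. The 5-gene sum went from 0 to 3.67 CPM in uncontracted to 4.85 to 67.4 in contracted legs. The sum was 57.4, 7.24 and 67.4 CPM in contracted control 1, 2 and 3, beside 80.5, 96.1 and 97.2 CPM of Klf5 and 47.6, 86.2 and 63.5 of Klf6. It was 19.3, 4.85 and 50.5 CPM in contracted Myc 1, 2 and 3, beside 53.8, 95.2 and 105 CPM of Klf5 and 34.5, 76.4 and 75.8 of Klf6. The 4 globin genes rose, from a sum of 307 to 456 CPM to one of 397 to 991, although Hbb-bs did not pass by DESeq2 (adjusted p = 0.281), with the replicate block (0.0920), with the stricter filter or in 9 of the 12 fits that leave out 1 library, and Hba-a2 did not pass in 3 of these 12 (edgeR adjusted p = 0.0531 to 0.0571). Of 3 macrophage markers tested Cd68 rose (1.70 ± 0.40) and Csf1r fell by 0.54 ± 0.15, at sums of 66.8 to 127 and 69.8 to 92.2 CPM. Cd68 held 27 reads in uncontracted and 90 in contracted legs. It too was tested only because of its contracted legs, so a fall could hardly have been seen. Cd68 did not pass without contracted control 3 (edgeR adjusted p = 0.0673). Csf1r did not pass by DESeq2 (adjusted p = 0.0863) or in 8 of the 12 fits that leave out 1 library (edgeR adjusted p = 0.0516 to 0.0978). Without the 4 libraries Csf1r was at -0.16. Of 5 smooth muscle markers Acta2 fell by 0.55 ± 0.13, and it was at -0.31 without the 4 libraries. No marker of fibroblasts (5 tested) or adipocytes (3) passed. Among the adipocyte markers Car3 averaged 7026 CPM over the 12 libraries, beside 18.8 for Adipoq and 10.3 for Cidec. Which cells the Car3 reads come from was not tested. The 4 satellite cell markers had too few reads to be tested, at sums up to 3.29 CPM. Beyond these values, the part of other cells in the Klf results was not tested.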

How the data were processed

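RNA was extracted with Trizol and libraries were made with a QuantSeq 3′ mRNA kit, per the labels' protocols. The authors deposited raw read counts per gene in 1 table for all 12 libraries. The submitters' processing notes list build mm10 and the tools HTSeq 0.6.0, SAMtools, STAR 2.5.2a and FastQC 0.11.5, without saying what each did. The annotation release, the strand setting and any filter are not given in the sources used here, so reads of genes that overlap Klf3, Klf9 and Klf13 cannot be told apart by strand (the overlapping genes held at most 4 reads in any library).

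Group, animal and leg were read from the titles. Counts were scaled by TMM and tested with edgeR 4.0.16 in R 4.3.3 (filterByExpr with a minimum count of 10, 4 group means over all 12 libraries, quasi-likelihood F test, 2-sided, Benjamini-Hochberg over 6676 genes, threshold 0.05). Each SE is the size of a log2 change over the root of its F value, so it restates the test. p-values measure the spread between 3 legs a group. Without the 4 contracted libraries 1 contracted leg a genotype is left, and the spread comes from uncontracted legs alone. For Klf15, under the filter, the ratio of pooled reads has an exact 95% interval, which covers counting error only. Copies of 1 molecule may count more than once, as the processing notes name neither molecular identifiers nor removal of copies. Gene positions are from GENCODE M21 (GRCm38).

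The members, gene lists, tests and alternatives were chosen with earlier results of these data known. Named genes are the members, Myc, up to 4 genes a list with the smallest p, and the 3 genes nearest to each member that passed with a mean of at least 5 CPM. A gene that this rule names is not reported here. Legs of the same number and genotype come from 1 animal, per the titles, so the numbers pair them. For animals 2 and 3 this rests on labels that the Myc reads put in doubt. Between the legs of an animal, deviations from the group mean had correlations of -0.122 to 0.112. Alternatives were RLE scaling, library totals alone, DESeq2 1.42.0, no filter, a stricter filter (20 reads in 3 libraries), the 4 contracted libraries numbered 2 and 3 left out, the animal as a block (random, with limma 3.58.1, for the Myc comparisons), genotype ignored, only the 6 libraries compared, and each library left out. The tests were tried on simulated counts with known changes in each comparison.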

Additional observations from a re-analysis of the deposited data

How the results depend on the processing

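Klf5 and Klf6 passed edgeR's or the alternative's test under all 20 alternatives in each of the 3 contraction comparisons, with averaged log2 changes of 2.10 to 2.64 and 2.45 to 3.37. With the animal as a replicate block they were 2.5 and 3.06, and the block changed no member's call. Without the 4 contracted libraries numbered 2 and 3, signs turned for Klf13 (averaged -0.43, control animals -0.40), Klf4 (control -0.19), Klf9 (averaged -0.32, control -0.36, Myc animals -0.28) and the Klf5 interaction (-0.32), none of which passed in any of these fits. Klf3 in control animals was at 0.010 with library totals alone and 0.016 with the block. Leaving out 1 library each gave -0.045 to 0.289 for Klf13 averaged, -0.260 to 0.104 for Klf13 in Myc animals, -0.138 to 0.321 for Klf2 in control animals, -0.013 to 0.405 for Klf3 averaged, -0.353 to 0.459 for Klf3 in control animals and -0.048 to 0.365 for the Klf5 interaction. Klf4 passed in Myc animals with no low-count filter (adjusted p = 0.00489), without uncontracted Myc 1 (0.0294) and without contracted Myc 1 (0.0221), and Klf9 there with no filter (0.0142). Klf3 and Klf10 have no value under the stricter filter. Without the 4 contracted libraries the averaged changes were 0.26 for Klf2, 0.045 for Klf3 and 0.39 for Klf10.

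Counts of genes called moved as follows. Averaged contraction gave 107 genes without the 4 libraries and 349 to 722 with 1 library left out. In control animals the count was 305 with no filter, 67 without the 4 libraries and 116 to 313 with 1 left out (313 without contracted control 1, 116 without contracted control 3). In Myc animals it was 433, 59 and 147 to 517 (517 without contracted Myc 1, and 151, 173, 152 and 147 without uncontracted Myc 2 and 3 and contracted Myc 2 and 3). The interaction gave 18 genes with no filter and 0 to 4 with 1 left out, and Myc in contracted legs 5 and 0 to 0. Myc in uncontracted legs gave 24 with no filter, 6 without the 4 libraries, 2 from only the 6 libraries compared and 0 to 2 with 1 left out. The number of members called was 2 to 4 for averaged contraction and Myc animals, and 2 for control animals, over 20 alternatives. The cause of these shifts was not tested. Depth limits Klf3, Klf4, Klf10 and Klf15, which held 84 to 182 reads in all 12 libraries together.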
